A study of Mus musculus with 50 samples.

Results

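Portal fibroblasts are matrix-producing cells that lie around the bile ducts, arteries and veins of the portal tracts of the liver. They are distinguished from the hepatic stellate cells, which lie along the sinusoids and store vitamin A, and from the vascular smooth muscle cells, whose actin and myosin ring the vessels. Portal fibroblasts make fibrillar collagens and collagen-binding proteins, and in bile duct disease they can take on contractile genes and become myofibroblasts. The cells described here are 191 of 49917 cells of a CosMx data set, chosen by 4 genes known from fibroblasts of the vessel and duct sheath. These were Dpt (dermatopontin, a small matrix protein that binds decorin and collagen fibrils), Lum (lumican, a leucine-rich proteoglycan of collagen fibrils), Mgp (matrix Gla protein, an inhibitor of calcification) and Gsn (gelsolin, an actin-severing protein).

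CosMx spatial molecular imaging reads single transcripts in situ on a tissue section through cycles of fluorescent probes, and assigns each decoded spot to a segmented cell. A panel of 1000 gene targets and 10 negative probes had been applied to 5 µm sections of formalin-fixed median lobe. Control livers came from wild-type C57BL/6 mice and HIRA KO livers from HIRA fl/fl C57BL/6 mice, a line in which Cre deletes the gene for HIRA, a chaperone that deposits the histone variant H3.3. Both groups carried AAV8-TBG-Cre, injected retro-orbitally at 6 months of age, and were collected 12 months later, at 18 months. The TBG promoter drives Cre in hepatocytes, so the cells described here were not the cells meant to lose HIRA. Hira itself was not on the panel. The labels gave the genotype of each of the 50 fields of view and named no mouse. Consecutive fields of 1 genotype formed 6 tissue areas, 3 per group, which served as the replicates, and p-values therefore measure the spread between areas. The left column of the slide held control tissue and the right column HIRA KO tissue, so genotype and slide side cannot be told apart.

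A cell counted as portal fibroblast-type when Dpt, Lum, Mgp and Gsn together gave at least 4 counts and at least 4% of its gene counts, among the 49917 of 52132 segmented cells with at least 20 gene counts. Members made up 0.383% of these cells, and no cell identifier was shared between rows of the table (0 shared). The 3 control areas held 734269 to 1079300 gene counts each and the 3 HIRA KO areas 1296916 to 1565758, in 7356 ± 724 and 9283 ± 1528 cells (SD, n = 3). The median counts per cell overlapped, at 94, 135 and 88 in control and 104, 123 and 149 in HIRA KO areas (two-sided exact permutation p = 0.4, n = 3). Members held a median of 89 gene counts, from 28 to 539, against a median of 112 in the other cells. The median negative probe reached 0.294 per 1000 gene counts in members and the highest reached 0.534. Of the 1000 genes, 568 had more counts in members than the highest negative probe.

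The 4 rule genes are given as a description, since they chose the cells. Gsn supplied 56.8% of the 1148 rule counts and was found in 176 members (92.1%). Dpt was found in 119 members (62.3%), Mgp in 97 (50.8%) and Lum in 53 (27.7%). Thus Gsn was the gene that brought in most members. Dpt or Lum was present in 135 members, both in 37 and all 4 rule genes in 11, whereas 56 members had neither Dpt nor Lum and 25 had Gsn alone. A single Dpt or Lum count was no mark of the class, because 9011 other cells had one or more. Dpt levels in members were 8.34, 11.7 and 13.5 per 1000 gene counts in control areas 1, 2 and 3 and 14.5, 14.3 and 9.02 in HIRA KO areas 1, 2 and 3. Gsn levels were 46.5, 31.2 and 32.2 in control areas and 28.8, 31.2 and 42.9 in HIRA KO areas. The control and HIRA KO ranges overlapped for both genes.

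Many members lay close to the limits of the rule. The median member had 5 rule counts, with a highest value of 34, and 72 members had exactly 4, 37 had 5 and 82 had 6 or more. The median share was 5.93%, and 61 members lay between 4% and 5%. Just outside, 99 cells met the 4% limit with 3 counts, and 114 cells had 4 or more counts at 3% to 4%. In all, 809 cells had 4 or more rule counts, and 618 of these fell under the 4% limit. Of the members, 119 held under 100 gene counts, so membership also depended on the depth of the cell. Of the members, 50 also met the rule of another class. There were 34 that met the stellate-type rule (Dcn and Cxcl12), 11 that met the smooth muscle-type rule (Acta2, Tagln and Myh11) and 4 that met the lymphoid and plasma rule.

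The label was checked against 5 further portal fibroblast genes on the panel, none of which entered the rule. Pdgfra, the PDGF receptor alpha chain of fibroblasts, stood at 1.97 per 1000 gene counts in members and at 0.890 in other cells, and was higher in members in 6 of 6 areas. Col15a1, a basement membrane zone collagen used as a portal fibroblast marker in mouse liver, stood at 1.65 against 1.02 (5 of 6 areas), and Cd34, a sialomucin of adventitial fibroblasts and endothelium, at 1.23 against 0.557 (5 of 6 areas). Igfbp6, which binds insulin-like growth factor II, went the other way, at 0.374 against 0.804, and Apod, a lipid-binding lipocalin, stood at 0.961 against 1.09. So 3 of the 5 genes were higher in members, while Igfbp6 and Apod were not, and the check was mixed. The name therefore rests mainly on the rule genes, which chose the cells. Counts were few, with 37 for Pdgfra and 23 for Cd34 in all members. Igfbp6 in members lay below the highest negative probe (0.534 per 1000). The 5 genes together summed to 6.19 per 1000 in members, 4.4998 in stellate-type cells and 4.36 in other cells. The 5 mesothelial genes on the panel summed to 3.26 per 1000 in members and 3.73 in other cells, and the 9 endothelial genes to 8.54 and 8.003. The 9 biliary genes summed to 14.2 and 10.7, and the 11 hepatocyte genes to 21.9 and 72.1. Cd44 and Cd3e were at 0 in members, but both were at 0 in every cell of the data set.

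Members were sparse and patchy. They numbered 31, 7 and 42 in control areas 1, 2 and 3 and 36, 52 and 23 in HIRA KO areas 1, 2 and 3. They lay in 33 of the 50 fields of view, and the 5 richest fields held 93 of them (48.7%). One field held 19 of the 31 members of control area 1, another 28 of the 42 of control area 3, and another 16 of the 23 of HIRA KO area 3. How fields had been chosen is not given in the sources used here.

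**Figure D1:**
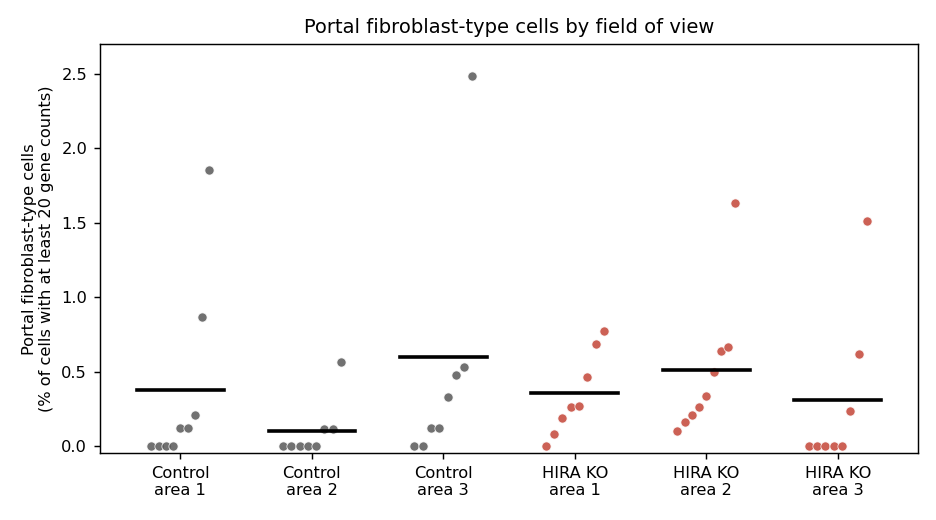
Portal fibroblast-type cells as a percent of cells with at least 20 gene counts (vertical axis) in each field of view (points), for the 3 control areas (grey) and the 3 HIRA KO areas (red), with the percent of the whole area as a black line. In control areas 1 and 3 a single field reached 1.85% and 2.49%, while the areas as a whole held 0.379% and 0.595%.

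As a share of cells, members did not differ between the genotypes beyond the spread of areas. The share was 0.379%, 0.103% and 0.595% in the control areas and 0.354%, 0.512% and 0.306% in the HIRA KO areas. The means were 0.359% ± 0.247 and 0.391% ± 0.108 (SD, n = 3 areas each), and the control areas spanned the HIRA KO areas on both sides (two-sided exact permutation test, p = 1, smallest p possible 0.1). Members per biliary-type cell were 1.06 ± 0.391 in control and 0.873 ± 0.0491 in HIRA KO areas (exact permutation p = 0.6, n = 3). Within slide rows, where 1 area of each genotype lies side by side, the HIRA KO share was the higher in 1 of 3 rows. When each cell with at least 50 counts was thinned to 50, the shares were 0.231%, 0.0340% and 0.423% in control and 0.155%, 0.196% and 0.150% in HIRA KO areas. The sign of the difference turned to -0.0622 percentage points with thinning (exact permutation p = 0.7, n = 3).

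Collagens were described first among the genes outside the rule. Fibrillar collagens are the load-bearing fibres of scar and portal sheath, and 8 of their genes were on the panel. The 3 main ones were higher in members than in the other cells of the same area in 6 of 6 areas. Col1a1, the alpha 1 chain of collagen I (chromosome 11, 94936224 to 94953042, mouse GRCm38), stood at 2.78, 1.95 and 2.14 per 1000 gene counts in the control areas and 2.64, 3.47 and 4.96 in the HIRA KO areas. Other cells of these areas lay between 0.537 and 1.01, so no member value fell within their range. Col3a1, the chain of collagen III (chromosome 1, 45311538 to 45349706), stood at 2.08, 0.974 and 1.71 in control and 2.31, 4.28 and 1.353 in HIRA KO areas, against 0.275 to 0.643 in other cells. Col1a2, the alpha 2 chain of collagen I, stood at 2.78, 1.95 and 1.49 in control and 2.31, 3.67 and 2.71 in HIRA KO areas, against 0.855 to 1.18. For each of these genes the control and HIRA KO areas overlapped in members. Stellate-type cells, the other collagen-making class, came closer. Their Col1a1 lay between 0.611 and 2.95 per 1000 and was below the members of the same area in 5 of 6 areas, with HIRA KO area 1 as the exception (2.86 against 2.64). Their Col3a1, between 0.489 and 2.26, was also below in 5 of 6 areas, whereas their Col1a2, between 1.67 and 2.89, was below the members in 2 of 6 areas and above them in the others.

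These levels rested on few transcripts. Col1a1 had 56 counts in all members and was found in 22.5% of them (95% Wilson interval 17.2 to 28.9), Col3a1 had 46 counts in 18.8% (13.94 to 24.99), and Col1a2 had 48 counts in 17.8% (13.03 to 23.84). In hepatocyte-type cells, which should lack collagen I and whose median depth was 86 against 89 counts, the shares were 4.17% for Col1a1, 1.99% for Col3a1 and 8.15% for Col1a2. Intervals cover counting error only. The shares in members were above those in hepatocyte-type cells for all 3 genes. Hepatocyte-type cells were spread unevenly, with 1, 8 and 17 in the control areas and 68, 296 and 113 in the HIRA KO areas. They were also chosen for a high share of hepatocyte gene counts, which leaves fewer counts for other genes. These shares pool cells over areas, and the difference was not tested. No fibrillar or other collagen had enough counts per area to enter the tests between groups or classes (0 of 23 tested).

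The remaining collagens were mixed. Col27a1, a fibrillar collagen of cartilage and other matrices, stood at 2.13 per 1000 in members and 0.972 in other cells (5 of 6 areas higher), and Col5a1, a chain of the fibril-nucleating collagen V, at 0.801 and 0.385 (5 of 6). The other collagen V chains did not stand out, with Col5a2 at 0.214 against 0.215 and Col5a3 at 1.12 against 1.13, and Col11a1 was at 0.320 against 0.478. Among the 15 non-fibrillar collagens, levels in members ran from 0.214 for Col8a1 to 2.78 for Col4a1. Col4a1 (basement membrane), Col6a3 (beaded filaments, 1.97 against 0.6247) and Col14a1 (a fibril-associated collagen, 1.65 against 0.695) were higher in members in 6 of 6 areas. Of the 8 fibrillar genes 5 were higher in members than in other cells by total level, and of the 15 others 9 were. The same count was 15 of 26 for growth factor and adhesion receptors, 6 of 9 for biliary and 5 of 9 for endothelial genes. It was 15 of 32 for growth factors and binding proteins, 3 of 13 for Kupffer and myeloid and 0 of 11 for hepatocyte genes. The counts alone therefore do not set collagens apart, and the share over all panel genes is not given here.

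**Figure D2:**
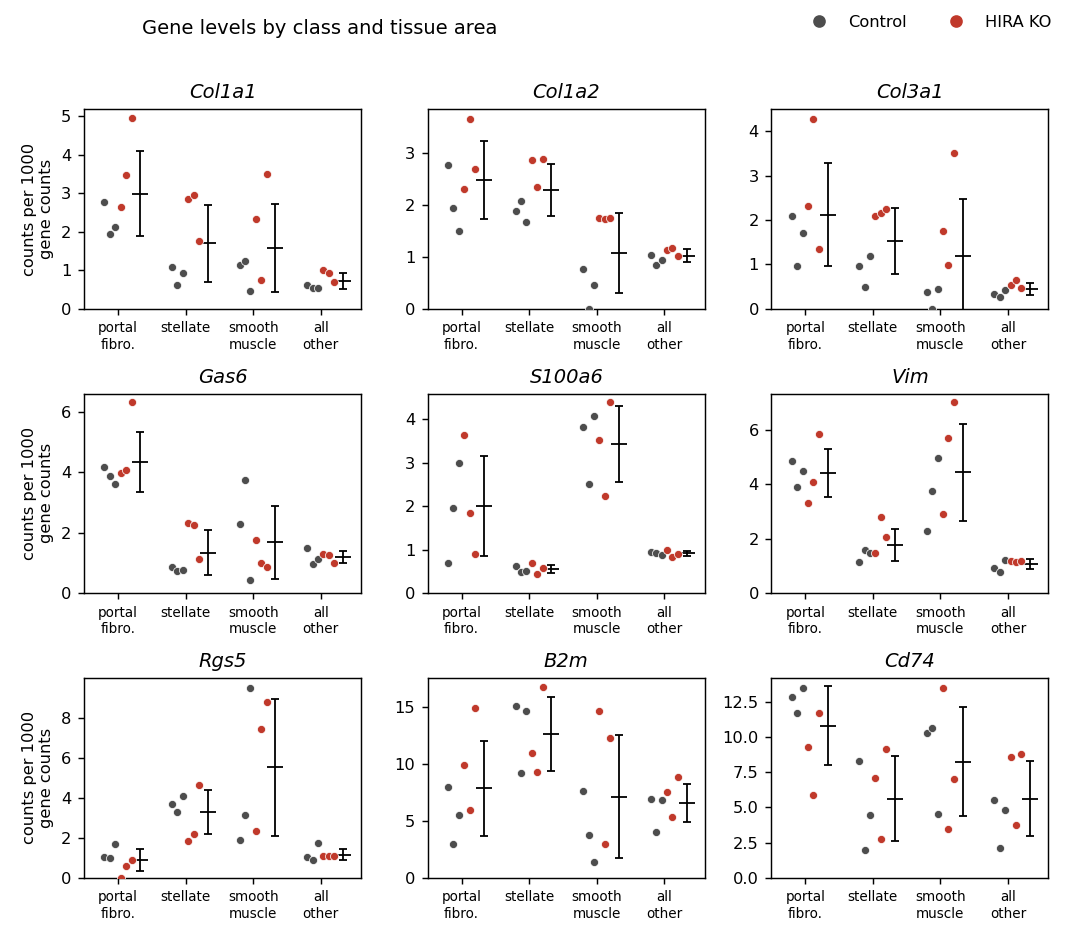
Levels of 9 genes in counts per 1000 gene counts (vertical axes, from 0) in portal fibroblast-type, stellate-type, smooth muscle-type and all other cells; each point is 1 tissue area (control grey, HIRA KO red) and the black mark gives the mean ± SD over the 6 areas. Col1a1 in members lies between 1.95 and 4.96, a range that stellate-type cells (0.611 to 2.95) and smooth muscle-type cells (0.453 to 3.51) overlap, and Gas6 lies above stellate-type cells in each area.

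Proteoglycans and other matrix proteins were shared with stellate-type cells. Dcn (decorin, a proteoglycan that binds collagen fibrils) stood at 10.4 per 1000 in members, 31.7 in stellate-type cells, where it entered the rule, and 3.01 in all cells outside the class. Bgn (biglycan, its close relative) stood at 11.7 in members, 13.4 in stellate-type and 6.99 in smooth muscle-type cells. Igfbp7, a secreted protein of vessel walls, stood at 14.4, 13.3 and 11.6. Among the 8 matrix remodelling genes, Mmp2, a gelatinase secreted by fibroblasts, stood at 2.40 in members and 1.53 in stellate-type cells and was above other cells in 6 of 6 areas. Thbs2, a matricellular thrombospondin, stood at 1.601 against 0.883 in stellate-type cells, and was also above other cells in each area.

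Genes that stellate cells are known for were mixed. Of the 7 on the panel, Pdgfrb, the PDGF receptor beta chain, stood at 1.174 per 1000 in members and 1.169 in stellate-type cells, and 2 could be tested, of which 1 was higher in members (Igfbp3) and 1 lower (Rgs5), as given with the test against stellate-type cells. Hgf, the hepatocyte growth factor, stood at 0.854 in members and 2.71 in stellate-type cells, Ngfr, a neurotrophin receptor of stellate cells, at 0.961 and 2.01, and Bmp5, a bone morphogenetic protein, at 1.44 and 2.79. The levels of Hgf and Ngfr in members were close to those of all other cells (0.878 and 1.02). Cxcl12, a chemokine that entered the stellate-type rule, stood at 13.98 and 26.91.

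The members varied among themselves. Those with Dpt or Lum and those without had Col1a1 at 2.95 and 3.10 per 1000 and Cxcl12 at 14.1 and 13.6. Col3a1 stood at 2.73 with and 1.65 without Dpt or Lum, Gas6 at 4.61 and 3.10, and Acta2 at 5.68 and 9.09. These values pool cells over areas, and no test was made between the subsets. Bgn was found in 61.5% of members with and 58.9% of members without Dpt or Lum.

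Against stellate-type cells, the members showed more Gas6, S100a6, Vim and Hspb1 and more of the MHC class II genes Cd74, H2-Ab1 and H2-Aa, and less Rgs5, Ifitm1, Tgfbi and B2m. The comparison used counts summed per area and class with tissue area as covariate (edgeR quasi-likelihood test, Benjamini-Hochberg adjustment over 46 genes, all genes of the class rules left out). Stellate-type cells that met the smooth muscle-type rule were left out, whereas the 11 members that met it stayed in. Of the 46 genes tested, 12 were higher in members (26.1%) and 11 lower (23.9%), and 13 lay on one side in every area (28.3%). With library size alone as the scaling, 13 were higher and 6 lower, so 68.4% of calls were higher against 52.2%. The median log2 difference over the 46 genes was -0.03. Of the higher genes named first, Gas6 also passed as higher against smooth muscle-type cells. S100a6, Vim, Hspb1, Cd74, H2-Ab1 and H2-Aa did not, with log2 differences of -0.78, -0.06, -0.79, 0.39, 0.08 and 0.04.

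Gas6, the ligand of the receptors Axl, Mer and Tyro3, was higher by 1.53 on the log2 scale (SE 0.29, edgeR adjusted p = 1.38e-05). It stood at 4.17, 3.89 and 3.63 per 1000 in members of the control areas and 3.97, 4.08 and 6.31 in members of the HIRA KO areas. Stellate-type cells lay between 0.733 and 2.34, below the members of every area. S100a6, a calcium-binding protein of motile and proliferating cells, was higher by 1.67 (SE 0.31, edgeR adjusted p = 1.38e-05), with 0.695 to 3.64 in members and 0.450 to 0.694 in stellate-type cells. Its lowest area, control area 1, held 0.695 in members and 0.632 in stellate-type cells, so the separation there was small. Vim (vimentin, the intermediate filament of mesenchymal cells) was higher by 1.15 (SE 0.28, edgeR adjusted p = 9.48e-04), and Hspb1, a small heat shock protein that binds actin, by 0.97 (edgeR adjusted p = 0.00876), both in 6 of 6 areas. Igfbp3, a carrier of insulin-like growth factors, was higher by 0.73 in 5 of 6 areas (edgeR adjusted p = 0.0297).

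Antigen presentation genes, a grouping made after the values were seen, were called in both directions. Cd74, the invariant chain of MHC class II, was higher in members by 0.82 (edgeR adjusted p = 0.00293), H2-Ab1 by 0.77 (adjusted p = 0.0102) and H2-Aa by 0.68 (adjusted p = 0.0422), each in 6 of 6 areas, while H2-Eb1, another class II chain, did not pass (log2 0.48, adjusted p = 0.173, higher in 4 of 6 areas). Cd74 stood at 10.8 ± 2.80 per 1000 in members and 5.63 ± 2.99 in stellate-type cells (SD, n = 6 areas). These genes are also in the list of Kupffer and myeloid genes, of which the 13 on the panel summed to 27.1 per 1000 in members, 25.96 in stellate-type and 23.95 in all other cells, and the part of neighbouring myeloid cells in the difference was not tested. B2m, the light chain of MHC class I, was lower by 0.92 (SE 0.23, edgeR adjusted p = 0.00103), at 7.86 ± 4.17 against 12.7 ± 3.26, and H2-K1, a class I heavy chain, by 0.58 (adjusted p = 0.0322), higher in stellate-type cells in 5 of 6 areas. H2-D1, another heavy chain, did not pass (log2 -0.56, adjusted p = 0.112).

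Lower in members in 6 of 6 areas were Rgs5, a regulator of G protein signalling found in pericytes (log2 -2.13, SE 0.40, edgeR adjusted p = 1.38e-05), and Ifitm1, an interferon-induced membrane protein (log2 -1.41, adjusted p = 9.48e-04). Rgs5 stood at 1.04, 0.974 and 1.71 per 1000 in control and 0, 0.611 and 0.902 in HIRA KO members, against 1.82 to 4.66 in stellate-type cells. Tgfbi, a matrix protein induced by TGF-beta, was lower by 1.07 (adjusted p = 0.00320), and Selenop, the selenium carrier of the liver, by 0.74 (adjusted p = 0.0242). The filter on low counts was applied over all classes of the fit. Rgs5, Ifitm1, Tgfbi and Selenop had too few counts in members alone to be tested between genotypes. They entered this test through classes where they were higher, so their lower level in members was in part fixed by the filter. Of the contractile and filament genes, 3 of the 6 tested were higher in members (Myl9, Tpm2 and Vim) and 1 lower (Rgs5), with a list median of 0.56. Without the members that also met another class rule, the differences of Myl9 and Tpm2 were 0.66 (edgeR adjusted p = 0.317) and 0.43 (adjusted p = 0.438), in place of 1.25 and 0.82, so both calls were lost. Of the hepatocyte genes, both tested were lower (Ttr and Apoc1), and Clu, a chaperone also in the biliary list, was higher by 0.99 in 5 of 6 areas. With each area left out in turn, H2-Aa lost its call without HIRA KO area 1 or 2, Igfbp3 without control area 1 or HIRA KO area 3, Selenop without control area 1, control area 3 or HIRA KO area 3, Tpm2 without control area 1, control area 2 or HIRA KO area 3, and Ttr without control area 1 or HIRA KO area 3. Without the richest field of each area, 17 genes could be tested and 1 (Clu) was called, Cd74, H2-Ab1 and B2m kept their sign without passing, and Tpm2 turned to -1.09.

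Against smooth muscle-type cells, members had less of 5 genes of the contractile and filament list and of Crip1 and Calm2, and more Apoe, Gas6, Clu and Igfbp3. Of the 46 genes tested in the same fit, 4 were higher in members (8.7%) and 7 lower (15.2%), and 10 lay on one side in every area (21.7%). With library size alone, 8 were higher and 7 lower, a share of 53.3% higher against 36.4%. Members had less Myl9, the regulatory light chain of myosin (log2 -3.11, SE 0.36, edgeR adjusted p = 1.10e-11), at 2.08, 4.87 and 1.71 per 1000 in control and 0.992, 1.83 and 0 in HIRA KO areas, against 4.97 to 23.1 in smooth muscle-type cells. Rgs5 (log2 -2.78), Tpm2 (-2.38) and Tpm1 (-2.30), the last pair encoding tropomyosins, were lower in 6 of 6 areas, as were Crip1 (-2.04), a LIM domain protein, and Calm2 (-1.09), a calmodulin. Cald1, caldesmon, was lower by 1.27 in 5 of 6 areas. In all, 5 of the 6 genes tested from the contractile and filament list, Rgs5 among them, were lower and 0 higher, and Vim did not pass the test. Smooth muscle-type cells were chosen for Acta2, Tagln and Myh11, so lower contractile genes in members follow in part from that choice. All 7 lower genes also had too few counts in members alone to be tested between genotypes, and passed the filter through the other classes. The list median was -2.34 beside 0.01 over all genes tested. Gas6 was again higher (log2 1.39, SE 0.40, adjusted p = 0.00426), in 6 of 6 areas, and so was Apoe, an apolipoprotein (log2 0.98, adjusted p = 0.00177). Igfbp3 (log2 1.36) and Clu (1.21) were higher in 4 and 5 of 6 areas. Leaving out control area 3 or HIRA KO area 2 took the adjusted p of Gas6 above the threshold, as control area 1 did for Igfbp3 and HIRA KO area 1 for Clu. Both class comparisons used the same members, so their values for Gas6 are not independent.

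Between genotypes, the gene that passed the test was Acta2, smooth muscle actin, the standard marker of contractile myofibroblasts (chromosome 19, 34241090 to 34255590). Counts summed over members per area gave 31 genes with enough counts, of which 1 was lower in HIRA KO (3.23%) and 0 were higher (0%) in the quasi-likelihood test of edgeR (Benjamini-Hochberg adjusted). At an unadjusted p under 0.05, 2 were higher (6.45%), and DESeq2 also called 0 higher and 1 lower. Acta2 stood at 10.4, 10.7 and 11.7 per 1000 gene counts in the control areas and at 1.65, 3.47 and 2.26 in the HIRA KO areas. All 3 control areas lay above all 3 HIRA KO areas, and 5 of the 31 genes tested (16.1%) had groups that did not overlap, in either direction. The difference was -2.07 on the log2 scale (SE 0.35, edgeR adjusted p = 0.00533).

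The Acta2 difference rested on few cells. There were 30, 11 and 55 Acta2 counts in the control areas and 5, 17 and 5 in the HIRA KO areas, in 6, 4 and 12 against 5, 8 and 4 members. The 11 members that also met the smooth muscle-type rule held 86 of the 123 Acta2 counts. They numbered 2, 1 and 6 in the control areas and 0, 2 and 0 in the HIRA KO areas. Without them Acta2 stood at 2.65, 3.50 and 2.25 in control and 1.65, 1.71 and 2.26 in HIRA KO areas, and the log2 difference was -0.40 (edgeR adjusted p = 0.988, no filter on low counts). Acta2 is itself in the smooth muscle-type rule, so this exclusion takes out members for their high Acta2 and a smaller difference follows from its construction. The next 2 exclusions use neighbouring cells and fields, not the Acta2 of the member, but smooth muscle-type neighbours were themselves chosen in part by Acta2. Smooth muscle-type cells made up 4.19%, 10% and 10.95% of the 20 nearest cells of members in the control areas and 0.556%, 3.27% and 0.870% in the HIRA KO areas, which do not overlap (exact permutation p = 0.1, the smallest possible, n = 3). Kupffer-type neighbours lay apart as well, in the other direction, at 0.645%, 0% and 0.714% in control and 0.833%, 1.63% and 4.35% in HIRA KO areas. No other neighbour class lay apart by genotype. Without members that had a smooth muscle-type cell among the 20 nearest, the log2 difference was 0.25 (edgeR adjusted p = 0.976, no filter). This left 18, 1 and 21 members in the control areas, with Acta2 at 5.76, 0 and 0.763 per 1000. It left 34, 37 and 19 members in the HIRA KO areas, at 1.38, 3.67 and 2.02. Without the richest field of each area the log2 difference was -0.47 (edgeR adjusted p = 0.952, no filter). Acta2 then stood at 0, 35.1 and 0.471 in control and 1.89, 1.36 and 2.63 in HIRA KO areas. The 35.1 rests on 8 counts in 1 of the 2 members left in control area 2. The cause of the Acta2 difference was not tested. In the cells outside the class Acta2 lay between 0.859 and 1.08 in control areas, and between 0.692 and 0.827 under HIRA KO.

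**Figure D3:**
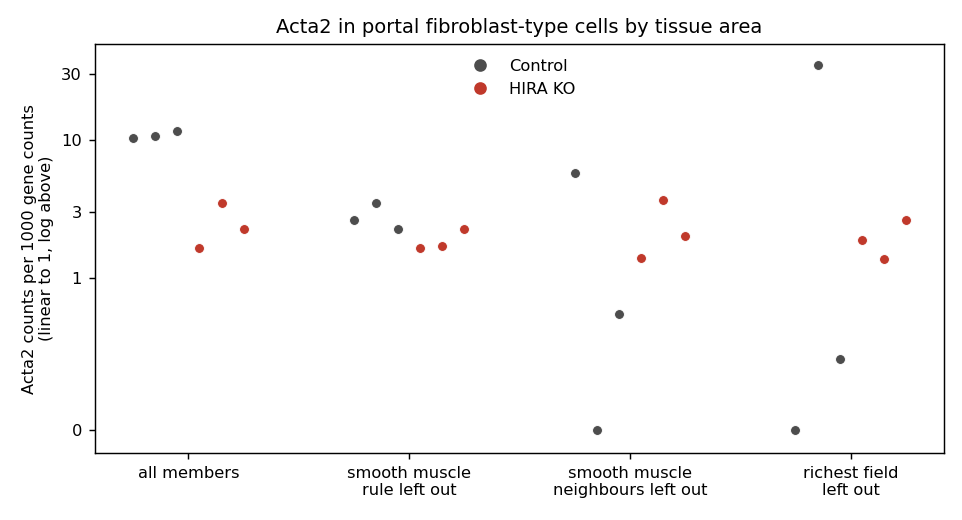
Acta2 counts per 1000 gene counts (vertical axis, linear to 1 and logarithmic above) in portal fibroblast-type cells of each tissue area (points, control grey, HIRA KO red), for all members and for the members left after 3 exclusions. The areas separate with all members (10.4 to 11.7 against 1.65 to 3.47) and overlap in each of the 3 subsets, of which the one without smooth muscle-type members was cut by a rule that contains Acta2. In control area 2 the subset without smooth muscle-type neighbours is 1 member, and the one without the richest field is 2.

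Other genes did not pass the adjusted threshold. Ttr, the hepatocyte-made thyroxine carrier transthyretin, stood at 4.17, 3.89 and 4.27 per 1000 in control and 6.94, 14.5 and 9.02 in HIRA KO members (log2 1.32, edgeR adjusted p = 0.147). It passed in cells with at least 50 counts (adjusted p = 0.0395), without HIRA KO area 1 (0.0438) and without members meeting another class rule (0.0191), where Cd74 passed as well (log2 -0.79, adjusted p = 0.0244) and Acta2 had too few counts to be tested. The groups did not overlap, and Ttr also stood higher in the other cells of HIRA KO areas, at 25.2 to 52.1 against 15.7 to 20.7. The 11 hepatocyte genes together summed to 14.3 to 15.6 per 1000 in control members and 22.5 to 32.8 in HIRA KO members, and the part of hepatocyte transcripts in the Ttr values was not tested. Ccl19, a chemokine that draws T cells and dendritic cells and is made by fibroblasts of lymphoid tissue, stood at 1.74, 2.92 and 2.99 in control and 4.96, 3.47 and 6.77 in HIRA KO members (log2 0.91, edgeR adjusted p = 0.303). In other cells Ccl19 ran from 1.32 to 1.94 in control and 1.11 to 1.53 in HIRA KO areas. Cd74 (log2 -0.60, adjusted p = 0.465) and H2-Aa (log2 0.69, adjusted p = 0.496) had opposite signs, and Gas6 (0.25) and Dcn (0.09) lay near the median of the 31 genes, 0.09.

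As a group, the 8 fibrillar collagen genes summed to 8.76 to 11.8 per 1000 in control members and 12.6 to 16.5 in HIRA KO members, ranges that do not overlap. The sums of 4 of the 16 gene lists (25%) had groups without overlap in members. In stellate-type cells the fibrillar collagen sums lay at 6.72 to 7.64 in control and 10.2 to 11.3 in HIRA KO areas. These groups did not overlap either, and among the other lists only the lymphoid and plasma sums lay apart in stellate-type cells. Lack of overlap with 3 areas per group gives an exact permutation p of 0.1, the smallest possible. For fibrillar collagens, all cells outside the class lay at 5.08 to 5.47 in control and 5.01 to 5.91 in HIRA KO areas. The 11 contractile and filament genes summed to 33.3 to 46.7 and 16.86 to 22.01, and this sum includes Acta2. The 5 portal fibroblast genes summed to 7.05 to 7.79 in control and 4.28 to 6.31 in HIRA KO members, and in other cells to 4.48 to 4.96 and 3.73 to 4.29. The sums are descriptions of low counts. Cd34, for example, had 23 counts in all members, at 2.08, 1.95 and 1.71 in control and 0.661, 1.02 and 0 in HIRA KO areas.

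Members had more smooth muscle-type cells around them than other cells did. These made up 4.97% ± 4.49 of the 20 nearest cells of a member and 0.213% ± 0.104 of those of other cells (SD, n = 6 areas), higher in 6 of 6 areas (two-sided exact paired permutation p = 0.03125, the smallest possible for 6 areas, 0.0781 adjusted over 10 classes). Other members made up 7.18% ± 4.90 against 0.360% ± 0.168, also in 6 of 6 areas. Kupffer-type cells, the resident macrophages of the sinusoids, were fewer, at 1.36% against 3.29%, lower in 6 of 6 areas. Sinusoidal endothelial-type cells, 71 in the whole data set, were at 0 among the neighbours of members against 0.142% for other cells, and are too few for this measure to tell a difference. Biliary-type cells, which line the bile ducts, made up 1.20% against 0.421%, higher in 5 of 6 areas (exact paired permutation p = 0.0625, n = 6). Stellate-type cells made up 2.68% and 2.10% (5 of 6 areas higher). In all, 4 of the 10 classes lay on one side in every area, the sinusoidal endothelial-type among them, and 0 of the 10 passed Benjamini-Hochberg adjustment at 0.05. Without the richest field of each area, the difference for smooth muscle-type cells fell from 4.76 to 1.62 percentage points (higher in 4 of 6 areas, exact paired permutation p = 0.125), with 0% in control area 3 and HIRA KO area 3. That for Kupffer-type cells went from -1.92 to -0.75 points (exact paired permutation p = 0.3125) and that for other members from 6.82 to 2.53 (p = 0.0625).

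The distance to the nearest biliary-type cell was shorter for members in all areas. Its median was 415, 1989 and 466 pixels for members of the control areas and 807, 621 and 478 pixels for members of the HIRA KO areas. Other cells lay at 2106, 2836 and 1590 pixels in control and 1014, 950 and 1472 pixels in HIRA KO areas. The members were nearer in 6 of 6 areas (exact paired permutation p = 0.03125, 0.0729 adjusted over 7 distances), and nearer than stellate-type cells in 6 of 6 areas. The size of a pixel is not given in the sources used here. By genotype, members lay at 957 ± 894 pixels in control and 635 ± 165 in HIRA KO areas (SD, n = 3, exact permutation p = 1), and other cells of HIRA KO areas were themselves nearer to biliary-type cells than those of control areas.

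These distances rested in part on which fields held the members. Without the richest field of each area, the members were on average 27.8 pixels farther from a biliary-type cell than other cells (nearer in 4 of 6 areas, exact paired permutation p = 0.969), with control area 2 holding 2 members. When each member was compared with the other cells of its own field, the area median of the percent of cells lying nearer to a biliary-type cell was 18.9, 84.5 and 34.8 in control and 40.8, 31.4 and 15.9 in HIRA KO areas, below 50 in 5 of 6 areas (exact paired permutation p = 0.3125). Control area 2 was the exception, with 7 members in all. For smooth muscle-type cells the same measure was 13.6, 1.03 and 7.92 in control and 24.3, 16.99 and 10.6 in HIRA KO areas, below 50 in 6 of 6 areas (exact paired permutation p = 0.03125, 0.156 adjusted over 5 classes). Across the 50 fields, the share of members had a Spearman correlation of 0.54 with the share of biliary-type cells, of 0.51 with that of smooth muscle-type cells and of -0.33 with that of Kupffer-type cells. The fields of 1 area share a section and are not independent, so these are descriptions.

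**Figure D4:**
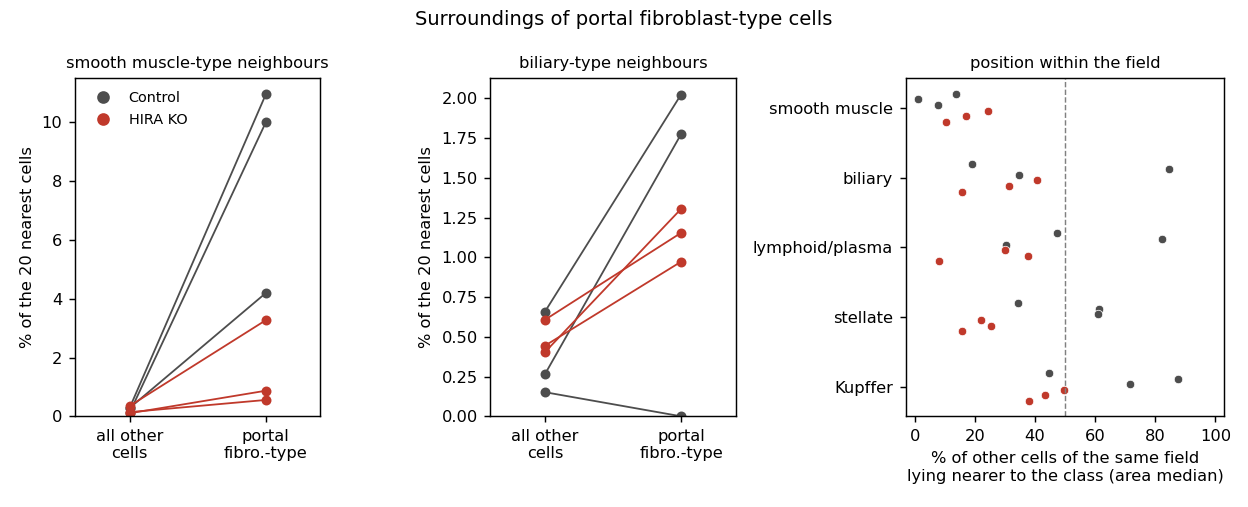
Left and centre, percent of the 20 nearest cells that were smooth muscle-type or biliary-type, for all other cells and for portal fibroblast-type cells, with a line for each tissue area (control grey, HIRA KO red). Right, percent of other cells of the same field of view that lay nearer to each class than the member did (median per area, 50 marked by the dashed line); for smooth muscle-type cells all 6 areas lie between 1.03 and 24.3.

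The stains and cell size, which did not enter the rule, also set members apart from other cells. In 7 of 10 measures the members lay on one side of the other cells in 6 of 6 areas, each at exact paired permutation p = 0.03125, or 0.0446 after Benjamini-Hochberg adjustment over the 10 measures. The cell area was 6713 ± 1899 square pixels in members and 12447 ± 2933 in other cells (SD over area medians, n = 6), and the nuclear area 2127 ± 318 against 2901 ± 150. DAPI, the DNA stain, was higher at 4314 ± 1320 against 2517 ± 453 intensity units, and CD45, a leukocyte membrane protein, at 1402 ± 456 against 883 ± 191. PanCK, a mixed keratin stain of epithelium, was lower at 2076 ± 370 against 2786 ± 514, as were CD3 (490 ± 111 against 641 ± 116) and B2M (2479 ± 203 against 3216 ± 497). Aspect ratio, eccentricity and the nuclear percent of transcripts did not pass. Without the richest field of each area, B2M differed by -481 units (exact paired permutation p = 0.156) and CD45 by 337 (p = 0.0625), while the other 5 measures stayed on one side in every area.

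Beside stellate-type cells, which are also small, the stains of members remained lower for PanCK, CD3 and B2M in 6 of 6 areas and higher for DAPI in 6 of 6 areas, at 0.0781 after adjustment over 10 measures. The B2M stain was 2650, 2336 and 2294 in members of the control areas and 2773, 2295 and 2527 in the HIRA KO areas, against a mean of 4195 ± 642 in stellate-type cells. B2m transcripts, in the fit above, were lower against the same cells. The CD45 stain was 1402 in members and 1328 in stellate-type cells, higher in 3 of 6 areas. Cell area was 6713 square pixels in members and 7380 in stellate-type cells, higher in 1 of 6 areas (exact paired permutation p = 0.375). Cell area by genotype was 7365, 10068 and 6625 square pixels in control and 5829, 5880 and 4509 in HIRA KO areas, without overlap (exact permutation p = 0.1, the smallest possible, n = 3), the only one of the 10 measures to lie so (10%). The cells outside the class lay apart in the same direction, at 15023, 16642 and 12197 in control and 8731, 10344 and 11744 in HIRA KO areas.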

How the data were processed

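The authors deposited whole-number counts of decoded transcripts per gene target and segmented cell, a table of single transcripts, and a table of cell positions, areas and mean stain intensity per cell. Per the methods, the panel was applied to sections of the median lobe, and cells with fewer than 20 counts were excluded there. The decoding and segmentation settings, the pixel size and any background subtraction of the deposited intensity values are not given in the sources used here. The deposited cell outlines were not used, and no cell type annotation was used.

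Counts were used as deposited, in cells with at least 20 gene counts. Members, comparison classes (the same thresholds of 4 counts and 4% on other genes, but 20% for hepatocyte-type cells) and gene lists were chosen with earlier results of these data known. Other classes were stellate-type (Dcn, Cxcl12), smooth muscle-type (Acta2, Tagln, Myh11), biliary-type (Spp1, Sox9, Epcam, Cd24a, Krt19, Krt7) and Kupffer-type (Cd5l, C1qa, C1qb, C1qc), members left out. Sums per area were tested with edgeR 4.0.16 in R 4.3.3 (TMM, filterByExpr, quasi-likelihood, Benjamini-Hochberg at 0.05 over all genes tested), without the rule genes. A check of the fits on simulated data also called some unchanged genes, in the genotype comparison among others. Levels are counts per 1000 gene counts, pooled over areas unless an area or an n is named. Area values were compared with two-sided exact permutation tests, paired within areas for members against other cells. Doublets were not removed. DESeq2 1.42.0, library size scaling, other thresholds and leaving out areas or fields were alternatives. Named genes were those past the threshold with every area on 1 side, up to 10 per direction by fold, up to 4 per list by lowest p, and where fewer than 5 passed, those with the lowest p. Gene positions are from GENCODE for GRCm38 and were not part of the deposited files.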

Additional observations from a re-analysis of the deposited data

Results flagged for a closer look

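The share of portal fibroblast-type cells in the single highest field of view stood apart from the other fields of the same area, by the gap to the next field over the whole range, in 5 of the 6 areas. The highest fields held 1.85% in control area 1 (next field 0.868%), 0.566% in control area 2 (next 0.117%), 2.49% in control area 3 (next 0.533%), 1.63% in HIRA KO area 2 (next 0.664%) and 1.51% in HIRA KO area 3 (next 0.616%). In HIRA KO area 1 the highest field, at 0.773%, did not stand apart. The nominal chance rate of this rule is about 1 in 20 groups. That rate was not tested for shares like these, which rest on few cells and cannot fall below 0. Their median was 0 in control area 2 and HIRA KO area 3, so the 5 areas marked cannot be set against it. These 5 fields also held many of the smooth muscle-type cells of their areas, with 13 of 24 in control area 1, 6 of 10 in control area 2, 21 of 23 in control area 3, 28 of 34 in HIRA KO area 2 and 3 of 8 in HIRA KO area 3. Of the biliary-type cells they held 8 of 21, 3 of 10, 15 of 42, 7 of 56 and 6 of 27. The highest field of HIRA KO area 1 held 0 of its 14 smooth muscle-type cells.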

How the results depend on the processing

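The difference in share between genotypes, 0.0318 percentage points, was -0.0394 with at least 6 counts and 6% (49 members), -0.0137 in cells with at least 50 counts and -0.0622 after thinning, and -0.0964 to 0.150 with each area left out, negative without control area 2 or HIRA KO area 2. With 3 areas against 3 the smallest exact permutation p is 0.1, and fewer areas do not lower it. This difference in share could therefore not pass the threshold in any of these settings. The distance of members to a biliary-type cell less that of other cells, -865 pixels, was -164 with Dpt and Lum alone (at least 2 counts and 2%, 411 members), -895 after thinning, neither past the threshold, and 27.8 without the richest fields. It ranged from -997 to -700.2 with 5 areas, where the smallest p is 0.0625. By genotype the distance differed by -592 to 195 pixels with an area left out, turning without control area 2. The stricter biliary-type rule left an area without a distance and gave no value.

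The genotype comparison had 1 gene called of 31 tested. It had 0 of 4 with at least 6 counts and 6%, 3 of 54 with Dpt and Lum alone and 2 of 28 in cells with at least 50 counts. Without members meeting another class rule it had 2 of 22 (Ttr and Cd74), and 0 of 993 for that without the filter. With the filter it had 0 of 29 without smooth muscle-type members, 0 of 23 without members near a smooth muscle-type cell and 0 of 14 without the richest fields. Acta2 had too few counts to be tested in any of these 3. Without the filter they gave 0 of 993, 0 of 991 and 0 of 981. Acta2 was also not tested with at least 6 counts and 6%, with Dpt and Lum alone or, with the filter, without members meeting another class rule. With an area left out, 1 to 2 genes were called (2 of 36 without HIRA KO area 1). Leaving out smooth muscle-type members, members near a smooth muscle-type cell or the richest fields, with or without the filter, was chosen after seeing the data, as was dropping the filter for members meeting another class rule. The slide row as a block kept Acta2 (adjusted p = 0.000439).

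Against stellate-type cells, 23 of 46 genes tested were called. This was 4 of 22 with at least 6 counts and 6%, 15 of 71 with Dpt and Lum alone and 12 of 37 without members meeting another class rule. It was 15 of 989 without the filter and 1 of 17 without the richest fields. With an area left out, 14 to 27 were called (14 of 35 without control area 3, 15 of 32 without HIRA KO area 2). Of the 23, 11 could be tested with at least 6 counts and 6%, and 10 without the richest fields. Against smooth muscle-type cells, 11 of 46 genes tested were called. This was 6 of 22 with at least 6 counts and 6%, 20 of 170 with at least 3 counts and 3% and 22 of 71 with Dpt and Lum alone. It was 18 of 52 with the rule genes kept and 6 of 17 without the richest fields. With an area left out, 7 to 17 were called (7 of 32 without HIRA KO area 2, 17 of 61 without HIRA KO area 1). Of the 11, 5 could be tested with at least 6 counts and 6%, and 4 without the richest fields. Measures on one side in every area, 7 of stains and shape and 4 of neighbours, became 4 with Dpt and Lum alone and 2 without the richest fields, and 7 to 8 and 4 to 5 with an area left out.

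With Dpt and Lum alone, these log2 differences turned sign: Ccl19 -0.23, Tpt1 -0.11 and Cd74 0.36 by genotype, and Selenop 0.31, Igfbp3 -0.44, Apoc1 0.28 and Ttr 0.81 against stellate-type cells. Itm2b by genotype was 0.030 with at least 3 counts and 3%, Acta2 by genotype 0.25 without members near a smooth muscle-type cell, and Tpm2 against stellate-type cells -1.09 without the richest fields. The cause was not tested. Of the other checks of single values, 689 kept direction and side of the threshold, 151 fell short of it and 7 newly passed. Part of this tally was fixed in advance, since with an area left out the smallest paired exact p is 0.0625. Neighbour and stain values past the threshold had to fall short in those runs, and the rest could not pass. With 18737 counts in members, genes at few counts per area could not be tested.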
